A study of Homo sapiens with 10 samples.

Results

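The transcriptomes of a basal and a luminal breast cancer cell line were compared gene by gene. All 10 RNA-seq samples of the series enter the comparison, 5 of MDA-MB-468 and 5 of ZR75-1, so the samples were chosen by their labelled cell line alone. MDA-MB-468 is an established human breast cancer line labelled basal, and ZR75-1 is an established human line labelled luminal. Each line stands for its subtype as 1 cell line only, so a difference between the lines cannot be told apart from a difference between the subtypes. For each line, 2 samples came from cells kept in DMSO, the solvent, and 3 from cells kept in 1 µM PKC412 (midostaurin, an inhibitor of many kinases), all for 6 h in 10 cm dishes. Some legends in the paper give a lower dose than the labels and the methods. The study asked how PKC412 acts on basal cells, whereas the question here is how the level of each gene differed between the lines, with the agent as a covariate.

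Normal breast ducts have an inner, luminal layer of secretory epithelial cells and an outer, basal layer that rests on the basement membrane. Luminal breast cancers usually carry the estrogen receptor, the transcription factors GATA3 and FOXA1 that work with it, and the simple keratins KRT8 and KRT18. Basal-like cancers usually lack the hormone receptors and ERBB2 amplification, and carry keratins of the basal layer such as KRT5, KRT14 and KRT17 together with EGFR.

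The deposited values were FPKM (fragments scaled to transcript length and to the number mapped), which allow levels to be compared between genes per length. Read numbers were not given, so the depth is unknown and the precision was taken from the spread between samples alone. FPKM summed to 599228 to 835069 per sample, and 9086 to 11476 genes were above 1 FPKM. Across genes, replicates of one group correlated on log2(FPKM + 1) with Pearson's r of 0.957 to 0.983, samples of one line in different agents with 0.945 to 0.986, and samples of different lines with 0.849 to 0.899. These correlations run over genes, which are no replicates, and carry no p. The dependence of FPKM on the GC content of the transcript differed among the samples of each line, with slopes, in log2 units for 10 points more GC, of -0.40 to 0.20 for MDA-MB-468 and -0.21 to 0.50 for ZR75-1. After an adjustment for GC content and length, 2678 and 1363 genes were called in the 2 directions, where the deposited values gave 2700 and 1459. The study's methods describe triplicate treatments, of which 2 DMSO samples a line are analysed here, and no source used here says whether these were independent cultures. The p-values then measure the spread between these samples, which may be technical. The labels give no batch or date.

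The keratins KRT5, KRT16 and KRT17 and the calcium-binding protein S100A4 were far higher in MDA-MB-468, and the trefoil peptides TFF1 and TFF3 and the secretoglobins SCGB2A2 and SCGB1D2 far higher in ZR75-1, within a transcriptome that differed broadly between the lines. Of 23426 gene symbols, 11960 had a mean above 1 FPKM in at least one line and were tested on log2(FPKM + 1) with limma. A gene was called at a Benjamini-Hochberg adjusted p below 0.05 and a log2 difference, MDA-MB-468 minus ZR75-1, of at least 1 in size. By this rule 4159 genes were called (34.8% of those tested), 2700 higher in MDA-MB-468 (22.6%) and 1459 higher in ZR75-1 (12.2%). With the adjusted p alone, 8043 genes (67.2%) passed. All 5 samples of MDA-MB-468 lay above all 5 of ZR75-1 for 3683 genes (30.8%), and the reverse held for 2193 (18.3%). The excess on the MDA-MB-468 side depended on the scaling of the samples. The median log2 difference over all tested genes was 0.30 with the deposited FPKM, 0.16 after median-ratio scaling and 0.04 after quantile normalization, and the share of called genes that were higher in MDA-MB-468 was 64.9%, 56.4% and 50.0%, respectively. With every sample scaled to the same FPKM sum, the median was 0.37 and the share 68.2%. The large differences were more even in direction, since 65 genes were called higher in MDA-MB-468 and 56 higher in ZR75-1 by a log2 difference of at least 5.

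**Figure D1:**
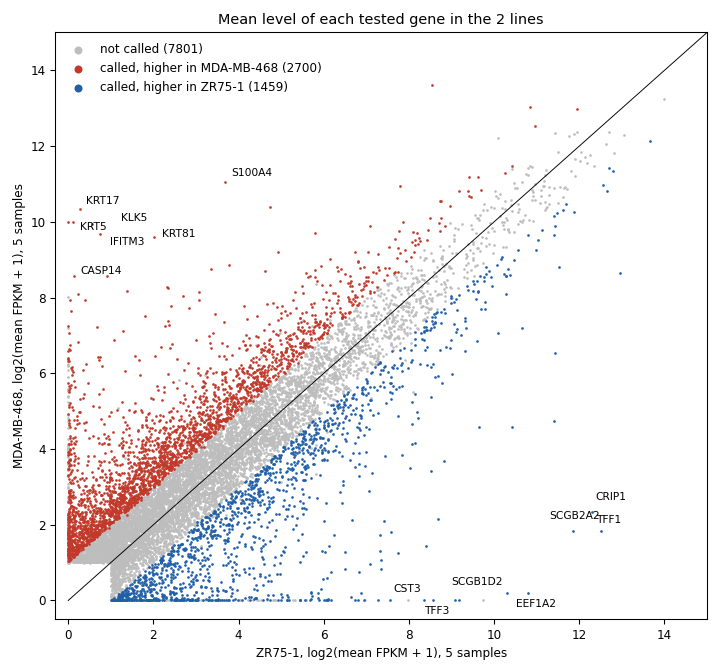
Mean level of each of the 11960 tested genes in ZR75-1 (x axis) and MDA-MB-468 (y axis), both as log2(mean FPKM + 1) over 5 samples. Each point is a gene, red for 2700 genes called higher in MDA-MB-468, blue for 1459 called higher in ZR75-1 and grey for the rest, and the points along the axes are genes near 0 in one line.

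Basal-like and luminal epithelial markers went with the labels of the lines. Here and throughout, where 2 ranges stand side by side with no line named, the line in which the gene was called higher comes first, and MDA-MB-468 comes first where the gene was not called. Of 11 basal-like markers, 10 were called higher in MDA-MB-468, and their summed level was 2845 to 3320 FPKM there (lowest and highest sample) and 21.0 to 27.9 in ZR75-1. The exception was CDH3 (P-cadherin), with 9.56 to 11.6 FPKM in MDA-MB-468 against 17.9 to 25.2 in ZR75-1. Several of the other 10, such as KRT5, KRT6A and EGFR, had a mean above 1 FPKM in MDA-MB-468 alone. They were tested for that reason, which makes a call likely for them. Of 10 luminal markers, 8 were called higher in ZR75-1. The summed level of all 10 was 7373 to 15744 FPKM in ZR75-1 and 3083 to 6644 in MDA-MB-468, so it was high in both lines. KRT19 did not reach the limit on the difference (1096 to 3028 against 1665 to 5432 FPKM, log2 difference -0.76), and the progesterone receptor PGR was below 1 FPKM in both lines, with 2.45e-05 to 0.549 in ZR75-1. Markers of other tissue cells were low or mixed. All 3 endothelial markers and 4 of 5 fibroblast markers were below 1 FPKM in every sample, and the fifth, the collagen gene COL1A1, was called higher in ZR75-1 (2.25 to 11.1 against 0.899 to 1.52 FPKM), though not in the DMSO samples alone. Of 3 tested mesenchymal markers, VIM was called higher in MDA-MB-468, TWIST1 higher in ZR75-1 and FN1 in neither, and the one tested myoepithelial marker, ACTA2, was called higher in ZR75-1. Among 5 immune markers, PTPRC and CD3E, which define leukocytes and T cells, were below 0.1 FPKM in every sample, while CD14 (11.7 to 23.3 against 0.422 to 1.02 FPKM) was called higher in MDA-MB-468 and CD68 (10.5 to 14.7 against 5.51 to 10.4 FPKM) was not called.

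The largest differences toward MDA-MB-468 were in keratins and other products of stratified epithelium. KRT5, the type II keratin of the basal layer, was 919 and 1019 FPKM (DMSO) and 1091, 964 and 1086 FPKM (PKC412) over the MDA-MB-468 samples, against 0.287 and 0.0123 FPKM (DMSO) and 0, 0.0883 and 0.0295 FPKM (PKC412) over those of ZR75-1. All 5 MDA-MB-468 samples were thus at least 919 FPKM, while the highest ZR75-1 sample, one of the DMSO pair, was at 0.287. The log2 difference was 9.88 ± 0.095 (SE, n = 5 and 5, limma adjusted p = 2.7e-11), and 9.73 between the DMSO samples alone (n = 2 and 2, adjusted p = 0.0027). KRT17, a keratin of basal and wounded epithelium, was 1523 and 1189 FPKM (DMSO) and 1083, 1461 and 1202 FPKM (PKC412) over the MDA-MB-468 samples, against 0.531 and 0.161 FPKM (DMSO) and 0.0883, 0.166 and 0.0845 FPKM (PKC412) over those of ZR75-1. It had the largest log2 difference of all named genes on this side, 10.07 ± 0.12 (adjusted p = 3.2e-11). Lack of overlap between the lines was required of the 12 genes with the largest differences in each direction. KRT16 (256 to 533 against 0.373 to 1.88 FPKM) and the hair keratin KRT81 (596 to 1001 against 1.55 to 5.15 FPKM) belonged to the same group of 12 genes with the largest differences.

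The other genes among these 12 had varied roles. The kallikrein protease KLK5, which acts in the shedding of skin cells, was 817 to 1198 FPKM in MDA-MB-468 against 0.294 to 1.03 in ZR75-1. CASP14, the caspase of keratinocyte cornification, was 302 to 428 FPKM in MDA-MB-468 against 0.0255 to 0.263 in ZR75-1. IFITM3, which blocks the entry of viruses, was 597 to 1078 FPKM in MDA-MB-468 against 0.505 to 0.861 in ZR75-1. For each of these, the samples of ZR75-1 were near 1 FPKM or below and those of MDA-MB-468 far above. The glutamate transporter SLC1A6 was 196 to 320.5 FPKM in MDA-MB-468 against 0 to 0.139 in ZR75-1 and the microsomal glutathione transferase MGST1 123 to 259 and 0 to 0.129. The small heat shock protein CRYAB was 190.4 to 289 FPKM in MDA-MB-468 against 0.217 to 0.417 in ZR75-1. S100A4, a calcium-binding protein tied to cell motility, was the most abundant of the 12 in MDA-MB-468, at 1370.2 to 2929.5 FPKM, and was 5.58 to 20.8 in ZR75-1. Log2 differences of the 12 genes ranged from 7.44 to 10.07, and between the DMSO samples alone each was called as well, from 7.23 to 9.98.

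Secreted proteins and estrogen-responsive genes led the other direction. TFF1, a secreted trefoil peptide and a classic target of the estrogen receptor, was 3.46 and 3.23 FPKM (DMSO) and 1.42, 2.47 and 2.2 FPKM (PKC412) over the MDA-MB-468 samples, against 5379 and 4239.5 FPKM (DMSO) and 7137, 7691 and 4798 FPKM (PKC412) over those of ZR75-1. Every ZR75-1 sample was above 4000 FPKM, and no MDA-MB-468 sample reached 4. The log2 difference of -10.68 ± 0.22 (adjusted p = 4.6e-10, -10.10 in DMSO) was the largest on this side. SCGB2A2 (mammaglobin), a secretoglobin of breast epithelium, was 2.17 and 2.51 FPKM (DMSO) and 2.44, 2.96 and 2.91 FPKM (PKC412) over the MDA-MB-468 samples, against 3661 and 4761 FPKM (DMSO) and 3723, 3013 and 3459.8 FPKM (PKC412) over those of ZR75-1, with a log2 difference of -10.00 ± 0.12 (adjusted p = 3.2e-11). The groups were far apart in both agents. Its relative SCGB1D2 was 947 to 1719 FPKM in ZR75-1 against 0 to 0.305 in MDA-MB-468. EEF1A2, a translation elongation factor normally found in neurons and muscle, was 1330.1 to 2181 FPKM in ZR75-1 against 0.0228 to 0.281 in MDA-MB-468. The LIM protein CRIP1 was 2619.5 to 8052 FPKM in ZR75-1 against 1.47 to 6.17 in MDA-MB-468, and the selenoprotein SELM was 187 to 463 FPKM in ZR75-1 against 0.876 to 2.73 in MDA-MB-468.

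The remaining 6 of the 12 genes with the largest differences toward ZR75-1 were near 0 in MDA-MB-468. TFF3, a trefoil peptide like TFF1, was 379 to 886 FPKM in ZR75-1 against 0 to 0.0816 in MDA-MB-468. The cystatin CST3, an inhibitor of cysteine proteases, was 248 to 512 FPKM in ZR75-1 against 0 to 0.0502 in MDA-MB-468. GSTT1, a theta-class glutathione transferase, was 88.8 to 132 FPKM in ZR75-1 against 0 to 0.0291 in MDA-MB-468. NGFRAP1 (also BEX3), a small adaptor of the neurotrophin receptor p75, was 138 to 174 FPKM in ZR75-1 against 0 to 0.0368 in MDA-MB-468. The long noncoding RNA DSCAM-AS1, which lies antisense to DSCAM, was 123 to 509.6 FPKM in ZR75-1 against 0 to 0.026 in MDA-MB-468. Whether the counting used strand is not given in the sources used here, so reads of DSCAM-AS1 and of DSCAM may not have been told apart. LOC440335, a transcript with no described role here, was 239.8 to 925 FPKM in ZR75-1 against 0 to 0.0569 in MDA-MB-468. Separation of the lines was part of the rule that chose the 12 genes. Their log2 differences ran from -6.77 to -10.68 and, in the DMSO samples alone, from -6.77 to -10.52.

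**Figure D2:**
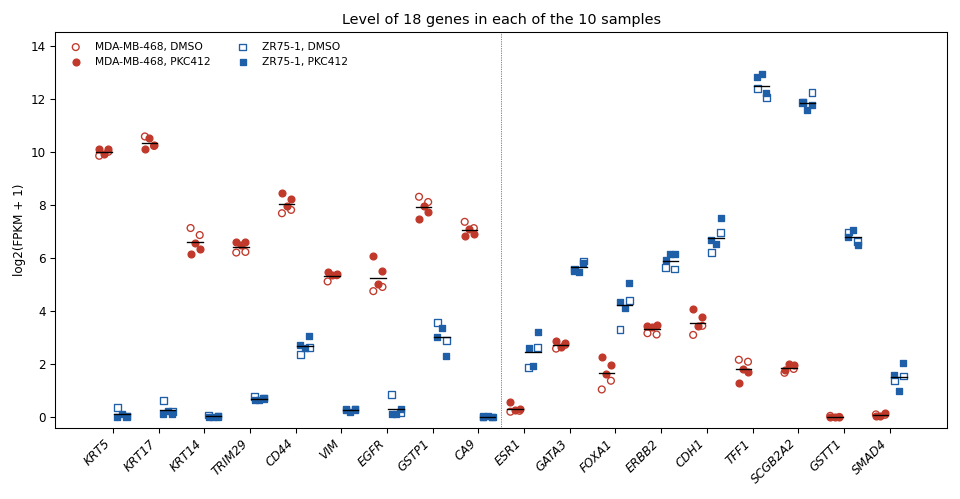
Level of 18 genes in each sample, as log2(FPKM + 1). Open symbols are DMSO and filled symbols PKC412, circles are MDA-MB-468 and squares ZR75-1, and bars mark the mean of the 5 samples of a line. The 9 genes left of the dotted line were higher in MDA-MB-468 and the 9 on the right higher in ZR75-1. The lines do not overlap for any of the 18, which the choice of KRT5, KRT17, TFF1, SCGB2A2 and GSTT1 required. For most genes, open and filled symbols of one line lie close together beside the distance between the lines. For ESR1, FOXA1 and SMAD4 the spread within ZR75-1 is wide beside that distance.

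Some genes were present in one line and near absent in the other. With limits of above 10 FPKM in every sample of one line and below 0.1 in every sample of the other, 33 of the 23426 genes (0.141%) were on in MDA-MB-468 and 34 (0.145%) on in ZR75-1. The MDA-MB-468 genes included CA9, a carbonic anhydrase induced by hypoxia (111 to 163 FPKM in MDA-MB-468), CBR1, a carbonyl reductase (91.5 to 116), KRT14, the partner of KRT5 in basal cells (69.5 to 138), FGFBP1, a carrier of fibroblast growth factors (71.1 to 84.1) and LXN, a carboxypeptidase inhibitor (18.7 to 81.3). Also on in MDA-MB-468 were the annexin copies ANXA8L1 (53.3 to 115 FPKM) and ANXA8L2 (55.6 to 66.2), the lung-associated noncoding RNA SFTA1P (56.1 to 113) and 2 short RNA genes, SNORD25 (254 to 2542) and MIR205 (12.6 to 195). FPKM of such short RNAs rest on very short lengths and varied several-fold within the line.

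The ZR75-1 genes included TFF3, LOC440335, CST3, DSCAM-AS1, NGFRAP1 and GSTT1 of the previous paragraphs. CYP2B7P1, a cytochrome P450 pseudogene (84.6 to 129 FPKM in ZR75-1), NUDT16L1, a relative of Nudix hydrolases (54.4 to 81.3), C19orf21 (53.9 to 85.4) and LDOC1, a gene of the X chromosome derived from a retrotransposon (57.1 to 73.4) completed the 10 highest. Values of the ANXA8L1 and ANXA8L2 pair, of KRT6A, KRT6B and KRT6C, of KRT14, KRT16 and KRT17, of the MAGEA genes, of the HLA genes and of pseudogenes are uncertain, because near-identical copies can share reads and the handling of such reads is not given in the sources used here. These examples are not complete. Other related genes, such as IFITM2 and IFITM3, KRT81 and KRT86, or AKR1C1 and AKR1C2, were not checked for shared reads either.

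The promoters of the genes that differed most had fewer CpG dinucleotides than those of other genes. Among 8899 tested protein-coding genes with a RefSeq promoter (GRCh38.p14), the 250 bases before the start held a median of 21 CpG, with quartiles of 14 and 28. The median was 22 in the 5850 genes that were not called, 21 in 2027 called higher in MDA-MB-468 and 19 in 1022 called higher in ZR75-1. It was 13 in the 148 genes called higher in MDA-MB-468 by a log2 difference of at least 3 and 14 in the 134 called higher in ZR75-1 by as much. These numbers are a description of the sequence and no test was made. KRT5 (chr12:52520395-52520644, minus strand) and SCGB1D2 (chr11:62241989-62242238, plus strand), one leading gene of each line, and GSTP1 (chr11:67583562-67583811, plus strand), a glutathione transferase called higher in MDA-MB-468 (175 to 314 against 3.86 to 10.7 FPKM) that has a CpG-rich promoter, show the range. In these sequences CpG is in capitals, and there were 6 in KRT5, 1 in SCGB1D2 and 28 in GSTP1.
KRT5: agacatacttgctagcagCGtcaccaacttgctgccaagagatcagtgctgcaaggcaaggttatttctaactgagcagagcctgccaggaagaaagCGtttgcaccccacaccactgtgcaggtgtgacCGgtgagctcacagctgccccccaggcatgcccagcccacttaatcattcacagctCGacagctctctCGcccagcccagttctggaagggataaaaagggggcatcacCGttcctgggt
SCGB1D2: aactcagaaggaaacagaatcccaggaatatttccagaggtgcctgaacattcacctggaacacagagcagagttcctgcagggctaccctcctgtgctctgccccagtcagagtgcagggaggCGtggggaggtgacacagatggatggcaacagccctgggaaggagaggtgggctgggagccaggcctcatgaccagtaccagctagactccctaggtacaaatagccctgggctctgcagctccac
GSTP1: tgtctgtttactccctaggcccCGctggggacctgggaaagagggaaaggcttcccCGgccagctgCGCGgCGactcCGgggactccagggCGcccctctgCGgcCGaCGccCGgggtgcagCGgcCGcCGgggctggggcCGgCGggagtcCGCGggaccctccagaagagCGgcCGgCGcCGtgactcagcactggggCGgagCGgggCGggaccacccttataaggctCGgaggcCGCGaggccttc

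Motifs were counted on both strands of the same 250 bases. The AP-1 motif TGANTCA was in 3.94% of all 8899 promoters, in 10.8% of the 148 promoters of genes higher in MDA-MB-468 by at least 3 on the log2 scale (16 promoters) and in 5.97% of the 134 higher in ZR75-1 by as much (8 promoters). TATAAA, the core of the TATA box, was in 5.39% of all, 14.2% of the 148 and 14.2% of the 134. GGGCGG, the GC box, was in 68.7% of all, 58.8% and 61.9%. TGTTTAC, a forkhead motif, was in 1.94% of all, 3.38% and 2.99%. A match is a string of letters and not a shown binding site. CASP14 (chr19:15049230-15049479, plus strand) and CA9 (chr9:35673678-35673927, plus strand), both higher in MDA-MB-468, and SCGB2A2 (chr11:62269908-62270157, plus strand) and PIP (chr7:143131827-143132076, plus strand), both higher in ZR75-1, each held 1 TGANTCA, given in capitals.
CASP14: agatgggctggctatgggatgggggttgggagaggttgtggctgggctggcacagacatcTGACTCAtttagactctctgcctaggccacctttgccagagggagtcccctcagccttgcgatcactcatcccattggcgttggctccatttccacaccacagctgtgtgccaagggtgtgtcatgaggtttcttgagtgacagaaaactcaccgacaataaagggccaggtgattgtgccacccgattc
CA9: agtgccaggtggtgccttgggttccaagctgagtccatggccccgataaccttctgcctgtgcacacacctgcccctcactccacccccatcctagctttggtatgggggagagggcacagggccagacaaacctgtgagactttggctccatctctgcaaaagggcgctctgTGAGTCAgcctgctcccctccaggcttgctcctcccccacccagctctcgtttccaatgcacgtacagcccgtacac
SCGB2A2: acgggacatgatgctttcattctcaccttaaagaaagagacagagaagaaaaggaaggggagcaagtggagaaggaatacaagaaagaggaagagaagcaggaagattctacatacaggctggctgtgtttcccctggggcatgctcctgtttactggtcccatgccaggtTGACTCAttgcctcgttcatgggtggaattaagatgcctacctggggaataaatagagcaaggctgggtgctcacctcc
PIP: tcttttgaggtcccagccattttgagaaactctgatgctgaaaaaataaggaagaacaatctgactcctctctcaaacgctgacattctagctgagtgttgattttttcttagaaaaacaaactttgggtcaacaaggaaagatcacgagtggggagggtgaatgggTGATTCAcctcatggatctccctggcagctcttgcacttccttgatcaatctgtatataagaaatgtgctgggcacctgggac

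Gene lists set the differences in the context of known pathways. A list is described by the number of its tested members called in each direction and by its median log2 difference, beside 22.6% and 12.2% of all tested genes called and a median of 0.30. A member with a mean above 1 FPKM in MDA-MB-468 or ZR75-1 alone is more likely to be called toward that line. Estrogen-induced genes were mostly higher in ZR75-1, at 14 of 18 tested, with a median of -3.67. AGR2, a disulfide isomerase of secretory cells (2030.3 to 3681 against 18.4 to 35.2 FPKM in ZR75-1 against MDA-MB-468), CTSD, the lysosomal protease cathepsin D (6257 to 10908 against 364 to 488 FPKM), the carbonic anhydrase CA12 (79 to 169 against 0.0789 to 0.211 FPKM), the zinc transporter SLC39A6 (47.2 to 1034 against 0.688 to 7.16 FPKM) and GREB1, a cofactor of the estrogen receptor (21.6 to 94.1 against 0.0496 to 0.107 FPKM), were among them. The secreted hormone STC2 went the other way, with 6.56 to 20.6 FPKM in MDA-MB-468 against 1.87 to 3.09 in ZR75-1. Upstream of these genes, the estrogen receptor ESR1 itself was 0.147 and 0.174 FPKM (DMSO) and 0.461, 0.214 and 0.24 FPKM (PKC412) over the MDA-MB-468 samples, against 2.63 and 5.09 FPKM (DMSO) and 5.02, 2.77 and 8.28 FPKM (PKC412) over those of ZR75-1. These levels were low beside those of its targets, yet the lines did not overlap (log2 difference -2.12 ± 0.24, adjusted p = 3.4e-05, -2.02 in DMSO).

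Of 13 tested luminal receptors and transcription factors, 9 were called higher in ZR75-1 and 1, the LIM-domain protein LMO4, higher in MDA-MB-468 (9.47 to 25.5 against 1.33 to 3.74 FPKM). GATA3 was 43 to 57.8 FPKM in ZR75-1 against 4.96 to 6.31 in MDA-MB-468 (log2 difference -2.92 ± 0.11, adjusted p = 1.9e-08), and FOXA1, which opens chromatin for the estrogen receptor, 8.86 to 31.9 and 1.05 to 3.77. XBP1, a factor of the unfolded protein response and of secretory cells, was abundant in both lines and higher in ZR75-1 (327 to 1047 against 58.5 to 162 FPKM). SPDEF, an ETS factor of secretory epithelium, was likewise present in both (179 to 304 against 61.7 to 81.5 FPKM). PRLR, MYB and ELF3 were not called, with log2 differences of -0.76, -0.54 and -0.58.

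Mucins and secretory products were called higher in ZR75-1 in 9 of 11 tested genes. MUC1, the cell-surface mucin of luminal cells, was 1284 to 2737 FPKM in ZR75-1 against 99.1 to 204 in MDA-MB-468, and the prolactin-induced protein PIP was 183 to 253 FPKM in ZR75-1 against 0.92 to 1.99 in MDA-MB-468. Lipocalin-2, LCN2, an iron-siderophore carrier, was high in both (667 to 1083 against 285 to 419 FPKM). AZGP1, a lipid-mobilising glycoprotein, was not called (436 to 645 against 346 to 519 FPKM, log2 difference 0.29). Only MUC15 was called the other way (0.727 to 2.03 against 0.00809 to 0.027 FPKM in MDA-MB-468 against ZR75-1), and not in the DMSO samples alone.

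All 8 basal and stress keratins were called higher in MDA-MB-468, and their summed level was 2673 to 3239 FPKM against 10.0 to 16.3. KRT15 showed the smallest difference, as it was also present in ZR75-1 (26.8 to 42.4 against 9.2 to 13.5 FPKM, log2 difference 1.47 ± 0.094). Of the 8, KRT5, KRT6A, KRT6B, KRT6C, KRT14 and KRT17 passed the filter through MDA-MB-468 alone, which makes a call likely for them. Among the simple keratins, KRT8 (2473 to 5272 against 958 to 1698 FPKM) and its partner KRT18 (1889 to 4386 against 777 to 1769 FPKM) were abundant in both lines and called higher in ZR75-1 (KRT18 not in DMSO alone), whereas KRT7 was 1032 to 1838 FPKM in MDA-MB-468 against 13 to 38.6 in ZR75-1.

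Of 18 tested basal-like markers, 17 were called higher in MDA-MB-468 with a median of 2.94, and 15 in the DMSO samples alone. After median-ratio scaling or quantile normalization the count was 15, with CDH3 then called higher in ZR75-1. FOXC1, EN1, CAV1, CAV2 and TRIM29, at least, passed the filter through MDA-MB-468 alone, which makes a call likely for them. The other 6 of the 24 listed markers were below 1 FPKM in every sample and were not tested. CD44, the hyaluronan receptor, was 204 to 344 FPKM in MDA-MB-468 against 4.07 to 7.36 in ZR75-1. ANXA1, a phospholipid-binding annexin, was 309 to 572 and 5 to 23.3, the caveola proteins CAV1 and CAV2 were 35 to 77.3 and 20.4 to 31.7 FPKM in MDA-MB-468 against 0.077 to 0.131 and 0.0948 to 0.452, and TRIM29, a marker of basal epithelium, was 72.4 to 96.8 against 0.546 to 0.705. Transcription factors of the list were at lower levels, among them FOXC1 (6.02 to 10.8 against 0.459 to 0.561 FPKM), SOX9 (7.48 to 15.7 against 1.38 to 3.04 FPKM) and EN1 (2.81 to 4.09 against 0.0632 to 0.144 FPKM). TP63, the master factor of normal basal cells, was below 0.1 FPKM in every sample of both lines, and SOX10, KIT and GABRP were below 0.5.

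**Figure D3:**
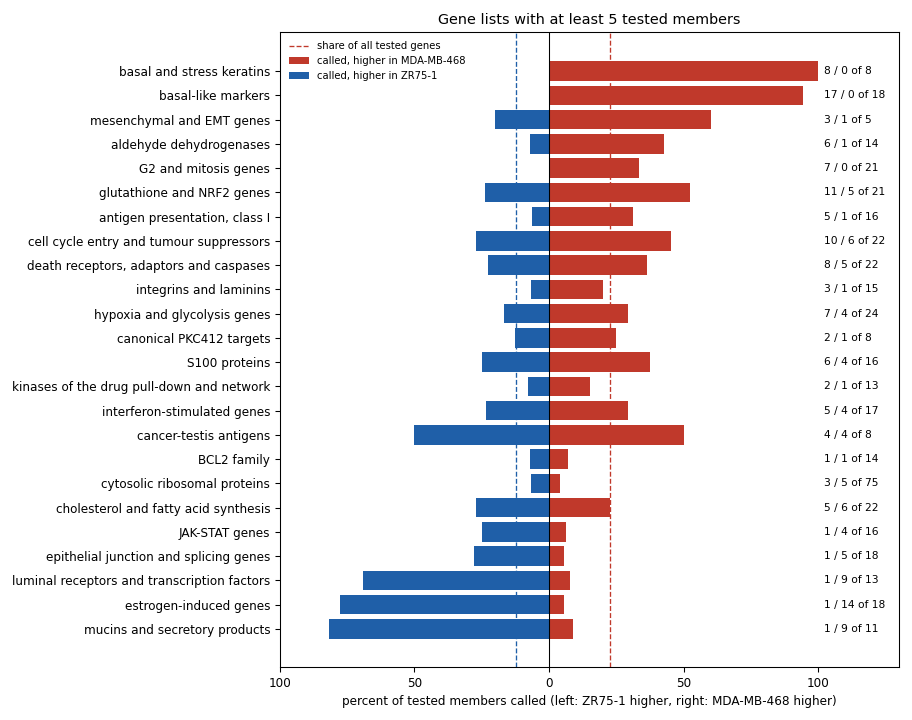
Gene lists with at least 5 tested members. Bars give the percentage of tested members called higher in MDA-MB-468 (right, red) or in ZR75-1 (left, blue), dashed lines mark the shares over all 11960 tested genes (22.6% and 12.2%), and the numbers at the right are counts called in each direction of those tested. Basal keratins and basal-like markers reach to the far right, and estrogen-induced genes, mucins and luminal factors to the far left.

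Among the ERBB receptor tyrosine kinases, EGFR was 25.8 to 66.9 FPKM in MDA-MB-468 against 0.0734 to 0.802 in ZR75-1, while ERBB2 was 46.8 to 70.3 FPKM in ZR75-1 against 7.63 to 10.2 in MDA-MB-468 and ERBB3 19.6 to 27.7 and 7.22 to 8.15. The 3 differences were 4.94 ± 0.27, -2.57 ± 0.077 and -1.49 ± 0.10, all called. Of 4 tested ligands, HBEGF was called higher in MDA-MB-468 (3.04 to 5.37 against 0.306 to 0.932 FPKM) and amphiregulin, AREG, higher in ZR75-1 (15.5 to 31 against 3.29 to 9 FPKM). EGF was also called higher in ZR75-1 (log2 difference -1.02), and TGFA was not called. In the DMSO samples alone 1 ligand was called in each direction.

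Of 18 epithelial junction and splicing genes, 5 were called higher in ZR75-1 (27.8%), 1 higher in MDA-MB-468 (5.56%) and 12 were not called. E-cadherin, CDH1, which joins neighbouring epithelial cells, was 7.53 and 9.82 FPKM (DMSO) and 15.6, 9.81 and 12.7 FPKM (PKC412) over the MDA-MB-468 samples, against 72.8 and 122 FPKM (DMSO) and 100.5, 90.4 and 178 FPKM (PKC412) over those of ZR75-1 (log2 difference -3.21 ± 0.23, adjusted p = 1.3e-06). The lines did not overlap, although MDA-MB-468 retained measurable levels. The desmosome protein DSP was the one higher in MDA-MB-468 (11.9 to 33.6 against 1.62 to 10.5 FPKM), and the serine protease ST14 was 129 to 159 and 123 to 146 FPKM. Of 16 mesenchymal genes, 11 fell under the filter, among them ZEB1, ZEB2, SNAI2 and CDH2, each below 0.3 FPKM in every sample. Vimentin, VIM, the intermediate filament of mesenchymal cells, was 33.5 to 43.7 FPKM in MDA-MB-468 against 0.128 to 0.24 in ZR75-1 (log2 difference 5.06 ± 0.089, adjusted p = 1.7e-10), and the matrix protein TGFBI was 23.1 to 29.7 FPKM in MDA-MB-468 against 0.666 to 0.763 in ZR75-1. TWIST1, a factor that drives epithelial-mesenchymal transition, was higher in ZR75-1 (1.68 to 3.48 against 0.0272 to 0.142 FPKM). The smooth muscle transcript TAGLN was 16.4 to 29.9 FPKM in MDA-MB-468 against 1.12 to 2.19 in ZR75-1 and ACTA2 0.21 to 0.496 and 2.28 to 3.52.

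Of 15 tested integrins and laminins, 3 were called higher in MDA-MB-468 and 1 higher in ZR75-1, a balance that turned to 1 and 3 after quantile normalization. ITGB5 (45.4 to 54.3 against 16.9 to 27.6 FPKM) and LAMB1 (4.61 to 8.21 against 0.604 to 1.64 FPKM) were higher in MDA-MB-468 and ITGA5, the fibronectin receptor subunit, higher in ZR75-1 (3.68 to 4.84 against 0.614 to 1.97 FPKM). ITGB4 of hemidesmosomes was 16.4 to 21.1 and 16.5 to 25.4 FPKM, not called. In contrast, 10 of 16 tested S100 genes were called, 6 and 4 in each direction. S100A2 (204 to 429 against 1.92 to 6.18 FPKM), S100A3 (45.4 to 87 against 1.35 to 3.06 FPKM) and S100A6 (5183 to 11574 against 1039 to 2672 FPKM) were higher in MDA-MB-468, and S100A8 (2033 to 3856 against 316 to 570.3 FPKM), its partner S100A9 (3725 to 8933 against 1306 to 2431 FPKM) and S100A14 (2188 to 3194 against 627 to 973 FPKM) higher in ZR75-1. S100A7 (psoriasin) was close in both, at 779.6 to 1573 and 783 to 1759.

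For a list of 14 kinases drawn from the study's pull-down and network, 10 of 13 tested were not called, 2 were called higher in MDA-MB-468 and 1 higher in ZR75-1. After quantile normalization these counts were 2 and 3. The list also held PKN2, PDPK1 and AAK1, none of them called, which the study's heatmap of candidate targets does not show. FER, which that heatmap shows, fell under the filter. SYK, a cytoplasmic tyrosine kinase of immune receptors, was 5.78 to 9.44 FPKM in MDA-MB-468 against 1.32 to 2.27 in ZR75-1 (log2 difference 1.67 ± 0.11, adjusted p = 7.4e-07), and CAMK2G, a calcium/calmodulin kinase, was 13 to 17.9 FPKM in MDA-MB-468 against 3.7 to 6.61 in ZR75-1. IKBKE, a kinase of innate immune signalling, was 30.2 to 42.1 FPKM in ZR75-1 against 4.71 to 9.68 in MDA-MB-468. AURKA, the mitotic kinase Aurora A, was 33.2 to 67.1 and 24.2 to 87.5 FPKM, with a log2 difference of 0.05 (95% confidence interval -0.45 to 0.55). Since the study drew these genes from experiments on such cells, the list is no independent choice. Of the canonical PKC412 targets, 11 of 19 fell under the filter, including FLT3, KIT and KDR. Of the 8 tested, 2 were called higher in MDA-MB-468 and 1 higher in ZR75-1 (1 and 1 in DMSO alone), and the protein kinase C PRKCQ was among the former (1.42 to 2.05 against 0 to 0.0201 FPKM).

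In the JAK-STAT list, TYK2 was the only one of 16 tested genes called higher in MDA-MB-468 (40 to 50.8 against 5.63 to 8.41 FPKM), and STAT6, IL6R, SOCS1 and CISH were called higher in ZR75-1. STAT3, which the interleukin-6 family activates, was 20.2 to 36.5 and 16.8 to 32.9 FPKM (log2 difference 0.21, not called). Interferon-stimulated genes were split, with 5 called higher in MDA-MB-468 and 4 higher in ZR75-1 of 17. IFITM3 and IFITM1 (44.8 to 52.2 against 3.89 to 7.48 FPKM) were higher in MDA-MB-468 while IFITM2 (48.9 to 69.6 against 13.7 to 22.3 FPKM), BST2 (tetherin, 281 to 696 against 8.29 to 15.9 FPKM) and IFI6 (71.1 to 125 against 1.92 to 4.8 FPKM) were higher in ZR75-1. Of 16 tested genes of class I antigen presentation, 5 were called higher in MDA-MB-468 and 1 higher in ZR75-1. HLA-B, which presents peptides to T cells, was 93.4 to 116 and 68.6 to 116 FPKM and was not called. Of the class II genes, HLA-DRA was 0.00873 to 0.05 FPKM in MDA-MB-468 against 8.78 to 17.8 in ZR75-1, and HLA-DQB1 was 0 to 0.0375 FPKM in MDA-MB-468 against 18.6 to 30 in ZR75-1, and with HLA-DRB5, HLA-DRB1 and HLA-DQA1 they formed 5 consecutive tested genes below 0.1 FPKM in every MDA-MB-468 sample. These class II genes were chosen after their values were seen.

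Of 22 tested cell cycle entry genes and tumour suppressors, 10 were called higher in MDA-MB-468 and 6 higher in ZR75-1, with 3 and 5 in the DMSO samples alone and 8 and 7 after quantile normalization. CDKN2A, which encodes the CDK inhibitor p16, was 87.9 to 108 FPKM in MDA-MB-468 against 3.62 to 4.99 in ZR75-1 (log2 difference 4.29 ± 0.089, adjusted p = 5.2e-10), and CDKN2C (p18) was 39.2 to 43.2 and 6.23 to 8.56. RB1, the target of the CDK4 pathway, was 0.061 and 0.0411 FPKM (DMSO) and 0.114, 0.106 and 0.108 FPKM (PKC412) over the MDA-MB-468 samples, against 0.108 and 0.642 FPKM (DMSO) and 1.04, 0.248 and 3.49 FPKM (PKC412) over those of ZR75-1. Its level was at or under 0.114 FPKM in each MDA-MB-468 sample but also low and variable in ZR75-1, and it was not called (log2 difference -0.76 ± 0.31, adjusted p = 0.057). Cyclin D1, CCND1, was higher in ZR75-1 (83.9 to 175 against 15.6 to 30.4 FPKM), as were CDK4 (118 to 158 against 60.1 to 66.8 FPKM) and the p53 target CDKN1A (157 to 249 against 27.2 to 61.7 FPKM). SMAD4, the shared mediator of TGF-beta signalling, was 0.0692 and 0.0564 FPKM (DMSO) and 0.0363, 0.0258 and 0.0999 FPKM (PKC412) over the MDA-MB-468 samples, against 1.61 and 1.91 FPKM (DMSO) and 2.02, 0.969 and 3.05 FPKM (PKC412) over those of ZR75-1. No MDA-MB-468 sample was above 0.0999 FPKM and the lines did not overlap (log2 difference -1.42 ± 0.17, adjusted p = 5.4e-05).

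Of 21 genes of G2 and mitosis, 7 were called higher in MDA-MB-468 and 14 were not called, with a median of 0.95 against 0.30 for all genes. CDC20, the activator of the anaphase-promoting complex, was 183 to 206 FPKM in MDA-MB-468 against 29.5 to 37.9 in ZR75-1, AURKB 76.6 to 94.9 and 21.8 to 31, and CENPA, the histone of centromeres, 23.3 to 33.9 and 5.83 to 10.2. MKI67 was not called (9.79 to 13.2 against 1.21 to 11 FPKM). In the DMSO samples alone 5 were called.

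BCL2, the founding inhibitor of apoptosis, was called higher in ZR75-1 (2.9 to 9 against 0.211 to 0.561 FPKM), and of the other 13 tested members of its family 1 was called (PMAIP1, 1.93 to 6.27 against 0.35 to 1.51 FPKM in MDA-MB-468 against ZR75-1, not in DMSO alone). Of 22 tested death receptors, adaptors and caspases, 8 were called higher in MDA-MB-468 and 5 higher in ZR75-1, with 4 and 5 in DMSO alone and 4 and 7 after quantile normalization. CASP1, which cleaves interleukin-1 beta, was 13.2 to 23.5 FPKM in MDA-MB-468 against 0.425 to 1.51 in ZR75-1. CASP8 was not called (1.87 to 6.5 against 0.806 to 4.57 FPKM). The death receptor gene TNFRSF1A (74.5 to 107 against 26.1 to 29.4 FPKM) and the adaptor FADD (77.5 to 110.0 against 37.1 to 41.3 FPKM) were higher in ZR75-1.

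Glutathione and NRF2 genes were called in 16 of 21, 11 higher in MDA-MB-468 and 5 higher in ZR75-1, and 7 and 4 in the DMSO samples alone. GSTP1, which conjugates glutathione to toxic compounds, was 314 and 274 FPKM (DMSO) and 175, 245 and 209 FPKM (PKC412) over the MDA-MB-468 samples, against 10.7 and 6.37 FPKM (DMSO) and 7.05, 9.17 and 3.86 FPKM (PKC412) over those of ZR75-1. Every MDA-MB-468 sample was far above every ZR75-1 sample, and the log2 difference was 4.89 ± 0.21 (adjusted p = 5.3e-08). GPX1, the cytosolic glutathione peroxidase, was 226 to 432 FPKM in MDA-MB-468 against 1.88 to 5.94 in ZR75-1 (log2 difference 5.97 ± 0.21). The phospholipid peroxidase GPX4 went the other way (479 to 1032 against 216 to 372 FPKM in ZR75-1 against MDA-MB-468), as did GSTT1. The aldo-keto reductase AKR1C1 (214 to 253 against 15.1 to 38.5 FPKM) and KEAP1, which holds NRF2 in check (125 to 151 against 23.9 to 30 FPKM), were higher in MDA-MB-468. Of 14 tested aldehyde dehydrogenases, 6 were called higher in MDA-MB-468 and 1 higher in ZR75-1, with ALDH3A1 at 22.9 to 34.4 and 0.0742 to 0.308 FPKM, the stem cell marker ALDH1A1 at 6.07 to 20.6 and 0 to 0.0337 and ALDH1A3 at 9.35 to 41.3 and 0.314 to 1.39.

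Cancer-testis antigens, normally restricted to germ cells, split by gene family among those tested. All 8 tested genes were called. The 4 MAGEA genes were higher in MDA-MB-468, MAGEA3 with 113 to 205 against 2.16 to 4.91 FPKM, MAGEA6 with 132 to 225 against 16.3 to 41.6 FPKM, MAGEA12 with 68.8 to 123 against 7.34 to 18.6 FPKM and MAGEA2 with 7.81 to 45.3 against 2.89e-06 to 0.361 FPKM. MAGEC2 (4.07 to 13.5 against 0 to 0.0187 FPKM), CTAG1B (2.82 to 12 against 0 to 0.0546 FPKM), CTAG2 (18.6 to 53.3 against 0 to 0.109 FPKM) and PRAME (18 to 22.9 against 0.0342 to 0.0814 FPKM) were higher in ZR75-1. MAGEA2 and the 4 genes higher in ZR75-1 passed the filter through 1 line alone, which makes a call likely for them. The other 13 genes of the list in the files, among them MAGEA1, MAGEA4 and MAGEA10, were below 1 FPKM in every sample.

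In metabolism, single genes stood out within lists that were mixed. Of 24 tested hypoxia and glycolysis genes, 7 were called higher in MDA-MB-468 and 4 higher in ZR75-1, and 5 and 5 after median-ratio scaling. Lactate dehydrogenases LDHA (452 to 764 against 109 to 315 FPKM) and LDHB (109 to 131 against 5.1 to 11 FPKM) were higher in MDA-MB-468. The glycolytic enzymes GAPDH (10182 to 15898 against 3742 to 5211 FPKM), TPI1 (973 to 1471 against 224 to 332 FPKM) and ENO2 (35.7 to 39.4 against 3.28 to 4.06 FPKM) and the lactate exporter SLC16A3 (131 to 243 against 9.44 to 14.8 FPKM) were higher in ZR75-1. PKM, which makes pyruvate, was 773 to 857 and 701 to 861 FPKM (log2 difference 0.12, 95% confidence interval -0.06 to 0.30). Of 22 genes of cholesterol and fatty acid synthesis, 5 were called higher in MDA-MB-468 and 6 higher in ZR75-1, and 3 and 5 in the DMSO samples alone. The desaturase FADS2 was 39.7 to 92.5 FPKM in ZR75-1 against 1.24 to 1.76 in MDA-MB-468, and FASN, the fatty acid synthase, 62.7 to 152 and 19.3 to 42.8.

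Few cytosolic ribosomal proteins reached the limit on the difference, with 8 of 75 called, 3 higher in MDA-MB-468 and 5 higher in ZR75-1. Their median was -0.38, beside 0.30 for all genes, and -0.10 after quantile normalization. By the adjusted p alone, 12 were higher in MDA-MB-468 and 36 higher in ZR75-1. The counts of called genes moved with scaling, to 1 and 13 after median-ratio scaling and 5 and 4 after quantile normalization. RPL5 was 1419.9 to 1877 FPKM in MDA-MB-468 against 548 to 823 in ZR75-1, and RPS27 1429 to 2499 and 3993 to 7816. Many ribosomal protein genes have processed pseudogenes, so their FPKM are uncertain.

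The difference between the lines was uneven along the genome. Gene positions were taken from RefSeq (GRCh38.p14), used only for chromosome and order because the files rest on hg19, for 10825 tested protein-coding genes, of which 22.6% were called higher in MDA-MB-468 and 12.4% higher in ZR75-1. On chromosome 21, 71 of 111 genes (64.0%) were called higher in MDA-MB-468, with a median log2 difference of 1.20. On chromosome 6, 325 of 568 (57.2%) were, with a median of 1.12. Chromosome 11 followed with 227 of 664 (34.2%). On chromosome 16, 188 of 550 genes (34.2%) were called higher in ZR75-1 and the median was -0.54, and on chromosome 12, 120 of 560 (21.4%) were. After median-ratio scaling the medians of chromosomes 21, 6 and 16 were 1.02, 1.00 and -0.69, and in the DMSO samples alone 1.18, 0.97 and -0.52. These are descriptions, since neighbouring genes are not independent. The estrogen-induced TFF1 and TFF3, higher in ZR75-1, lie on chromosome 21 and ran against its median.

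**Figure D4:**
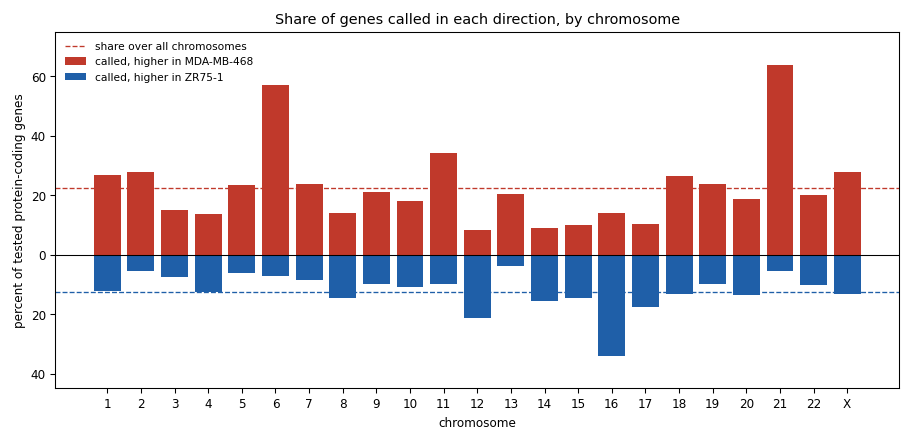
Percentage of tested protein-coding genes called higher in MDA-MB-468 (red, above 0) and in ZR75-1 (blue, below 0) on each chromosome, of 10825 genes. Dashed lines mark the shares over all chromosomes (22.6% and 12.4%). Chromosomes 6 and 21 stand out above and chromosome 16 below.

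Windows of 15 neighbouring tested genes showed where such differences were concentrated. Over 10503 overlapping windows the median log2 difference had a 5th percentile of -0.78, a median of 0.27 and a 95th percentile of 1.31. The windows named here and below were picked for the highest or lowest medians among windows that share no gene. High counts of genes called in one direction within them follow in part from that choice. The highest window lay on chromosome 12 from GALNT6 to KRT4 (median 3.10, and 2.52 in the DMSO samples alone) and holds 11 keratin genes, a cluster of related copies. The next lay on chromosome 7 from SUN3 to CCT6A, around EGFR, with 13 of 15 genes called higher in MDA-MB-468 and a median of 2.99 (2.80 in DMSO). The order of these windows held over all 10 samples and was the reverse in DMSO. SEC61G, a subunit of the protein translocation channel and the gene next to EGFR, was 9262 to 15859 FPKM against 253 to 457. PSPH, the last enzyme of serine synthesis, was 90.7 to 197 against 2.69 to 5.18 FPKM, whereas COBL, 2 tested genes away from EGFR, was 0 to 0.0062 in MDA-MB-468 and 1.84 to 6.07 in ZR75-1. On chromosome 19, from FDX1L to QTRT1, 14 of 15 genes were called higher in MDA-MB-468, with log2 differences of 1.75 to 2.99. TYK2 and KEAP1 of the lists above lie here, with the HSP90 cochaperone CDC37 (527 to 657 against 112 to 145 FPKM) and the CDK inhibitor CDKN2D (81.8 to 124 against 17 to 22.4 FPKM). A window on the X chromosome from VMA21 to HAUS7 (12 of 15) holds the MAGEA genes. On chromosome 1, from C1orf122 to PPIE, all 15 genes were called higher in MDA-MB-468 (median 2.12). The end genes of this and the other windows were chosen after the values were seen.

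In the other direction, the lowest window lay on chromosome 16 from PAM16 to UBN1, with 12 of 15 genes called higher in ZR75-1 and a median of -2.61. In the DMSO samples alone its median was -1.92 and no longer the lowest, beside -2.18 for the window around the BEX genes and -1.94 for COPS7A to PHB2. Within it and past its end, 10 consecutive tested genes from C16orf5 to PPL were below 0.1 FPKM in every MDA-MB-468 sample, the longest such run in either line. ROGDI was listed at 0 in all 5 MDA-MB-468 samples and was 20.1 to 38 FPKM in ZR75-1. The ubiquitin ligase MGRN1, also at 0 in all 5, was 0.724 to 9.68 in ZR75-1, and NUDT16L1 was 54.4 to 81.3 FPKM in ZR75-1 against 0 to 0.0528 in MDA-MB-468. On one side of the run, HMOX2, the constitutive heme oxygenase, was 53.2 to 67.3 FPKM in ZR75-1 against 0.33 to 0.637 in MDA-MB-468, and on the other side NAGPA, an enzyme of lysosomal sorting, was 3.34 to 5.37 FPKM in MDA-MB-468 against 12.6 to 16.6 in ZR75-1. NMRAL1, beyond HMOX2, was 103 to 216 FPKM in ZR75-1 against 32.7 to 61.3 in MDA-MB-468. The run below 0.1 FPKM thus ended before HMOX2 and NAGPA, but HMOX2 was still low in MDA-MB-468, with a log2 difference of -5.41. No run of 3 or more such genes was found with ZR75-1 as the low line.

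Other windows lower in MDA-MB-468 lay on the X chromosome around the BEX and ARMCX genes (median -2.42, 11 of 15 called higher in ZR75-1), at COPS7A to PHB2 on chromosome 12 (median -2.02, 13 of 15) and in a pair on chromosome 16, NPRL3 to RAB40C and RHOT2 to GNG13 (12 of 15 each). The chromosome 12 window holds TPI1 and ENO2 of the glycolysis list, and GAPDH lies on the same chromosome. On the X chromosome, ARMCX6 was listed at 0 in all 5 MDA-MB-468 samples against 37.2 to 46.7 FPKM, while GLA, a lysosomal galactosidase in the same window, was 34.8 to 39.9 against 19 to 23.5 FPKM and not called. A shorter run on chromosome 15 joined NDN, SNRPN and SNURF, genes normally expressed from the paternal allele, with SNRPN at 0 to 9.25e-12 FPKM in MDA-MB-468 against 27.5 to 34.7 in ZR75-1. The neighbour UBE3A was 1.1 to 3.48 FPKM in MDA-MB-468 against 0.753 to 3.81 in ZR75-1.

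**Figure D5:**
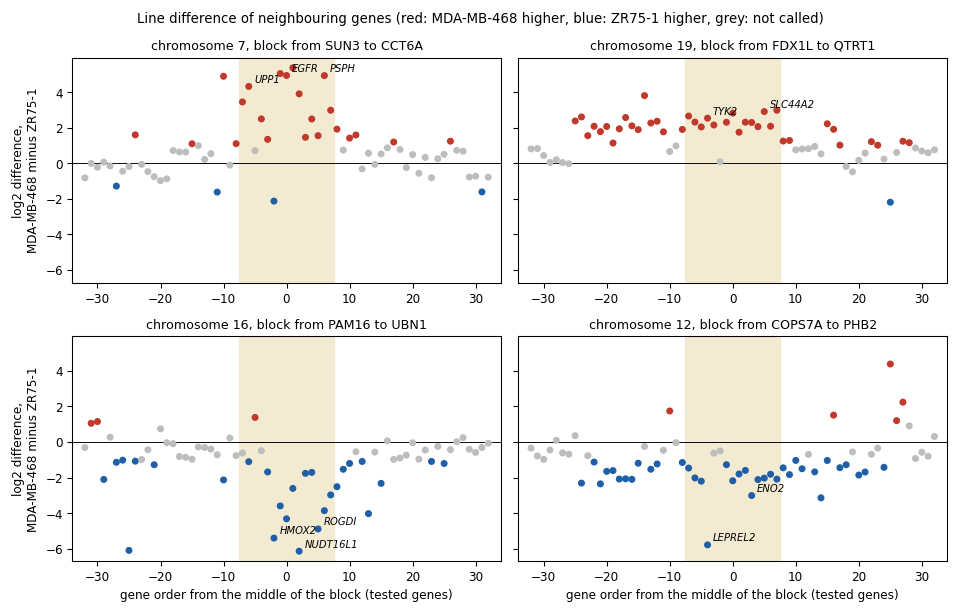
Log2 difference (MDA-MB-468 minus ZR75-1) of neighbouring tested protein-coding genes on chromosomes 7, 19, 16 and 12. The x axis counts genes from the middle of the shaded window of 15 genes, and colours mark the calls. The shaded genes lie mostly above 0 on chromosomes 7 and 19 and mostly below 0 on chromosomes 16 and 12, and on chromosomes 19 and 12 called genes of the same direction continue to the left of the window.

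Some abundant genes were at like levels. Of 680 genes above 100 FPKM in both lines, 178 (26.2%, beside 34.8% of all tested genes) were called and 295 (43.4%) were within 0.5 on the log2 scale, and the demand for a high level in both lines itself removes large differences. The 6 with the smallest differences were MRPS24 (329 to 588 against 293 to 638 FPKM), PIH1D1, DGCR6L, C19orf70, FDPS and GIPC1. FDPS, which makes farnesyl diphosphate, was 337 to 399 FPKM in MDA-MB-468 against 272 to 451 in ZR75-1 (log2 difference 0.01, 95% confidence interval -0.28 to 0.30). The closeness holds on the deposited scale, and after median-ratio scaling each of the 6 was lower in MDA-MB-468 by between 0.18 and 0.19.

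The line difference was also fitted within the solvent alone. Between the DMSO samples alone (2 and 2), 3260 genes were called (27.3% of 11960), 2047 higher in MDA-MB-468 (17.1%) and 1213 higher in ZR75-1 (10.1%). Of these, 3040 were also called in the same direction with all 10 samples, which is 93.3% of the DMSO list and 73.1% of the full list, and none (0) in the opposite direction. The 2 lists share the 4 DMSO samples. The interaction of line and agent, which asks whether the line difference itself differed between DMSO and PKC412, passed an adjusted p of 0.05 for 31 genes (0.259%). This count ranged from 14 to 48 with one sample left out, and groups of 2 and 3 samples do not show how many differences changed.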

How the data were processed

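RNA-seq was made from MDA-MB-468 and ZR75-1 cells after 6 h in DMSO (2 samples a line) or 1 µM PKC412 (3 samples a line). Per the labels, the authors used CASAVA 1.82 and TopHat2 with the hg19 build, and deposited FPKM per gene symbol for each sample, from their own pipeline. Its annotation is not given in the sources used here. Read numbers were not given and values above 0 went down to 2.2e-318, so depth is unknown. Here, genes with a mean above 1 FPKM in either line were tested on log2(FPKM + 1) with limma 3.58.1 (R 4.3.3; line and agent as terms, eBayes with trend, 7 residual degrees of freedom) and adjusted by Benjamini-Hochberg. A gene was called at an adjusted p below 0.05 and a log2 difference of at least 1. The pseudocount of 1 understates the change of low genes. The smallest design, 2 against 2, rests on the variance that limma shares across genes. Of 23426 symbols, 22213 matched RefSeq (20263 by symbol and 1950 by synonym). Promoters are RefSeq, GRCh38.p14.

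The samples, lists and rules were chosen with earlier results of these data known. The genes named were the 12 with the largest differences in each direction among called genes without overlap (short RNAs, 1 X-inactivation gene and Y-linked genes left out), list members, the 10 highest genes on in one line and off in the other, up to 5 neighbours of such genes and the 6 most alike. Alternatives were pseudocounts of 0.1 and 0.5, filters, scalings, subsets of samples, a replicate block, other variance models, an adjustment for GC content and length, and each sample left out. A few genes that these rules would name are not reported here.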

Additional observations from a re-analysis of the deposited data

Results flagged for a closer look

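The line difference itself differed between the agents for 3 of the named genes, by the interaction of line and agent (limma, Benjamini-Hochberg adjusted p below 0.05 over 11960 genes, 31 passing). The difference in PKC412 minus that in DMSO, on the log2 scale, was -2.06 for CASP9, 1.67 for HMOX1 and -1.79 for DSCAM-AS1. CASP9, the initiator caspase of the apoptosome, averaged 4.24 and 4.77 FPKM in the DMSO samples of MDA-MB-468 and ZR75-1 and 6.07 and 31.4 in the PKC412 samples (adjusted p = 0.011). It was called higher in ZR75-1 over all 10 samples and not between the DMSO samples alone, where the log2 difference was -0.14. HMOX1, the inducible heme oxygenase, averaged 19.9 and 194 FPKM in DMSO and 14.9 and 45.7 in PKC412 (adjusted p = 0.0023), so the difference toward ZR75-1 was smaller in PKC412. DSCAM-AS1 averaged 131 FPKM in ZR75-1 in DMSO and 461 in PKC412 (adjusted p = 0.0044), and was listed at 0 in the DMSO samples of MDA-MB-468 and at 0 to 0.026 in its PKC412 samples, so its line difference was called in either agent. HMOX1 and DSCAM-AS1 passed with each of the 10 samples left out in turn (highest adjusted p = 0.016 and 0.025), while CASP9 did not pass without DMSO sample 2 (adjusted p = 0.066) or PKC412 sample 3 (adjusted p = 0.053) of MDA-MB-468. All 3 passed with a pseudocount of 0.1, with median-ratio scaling and with a filter of 0.1 FPKM. With the replicate block none of the 3 passed (adjusted p = 0.1 for CASP9 and 0.098 for the other two).

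In the mean correlation with its line no sample stood apart from the other 4. PKC412 sample 3 of ZR75-1 had the lowest FPKM sum of its line (610275, the other 4 at 710360 to 835069). It also had the most genes above 1 FPKM (10979 against 9086 to 10269), the fewest at 0 (5429 against 5699 to 5987) and the lowest GC slope (-0.21). DMSO sample 1 of MDA-MB-468 had a GC slope of 0.20, beside -0.40 to -0.11 in the other 4. The 4 groups of 2 or 3 samples are too small to judge whether a sample is an outlier.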

How the results depend on the processing

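Counts of called genes kept within 1.5 times of 4159 under every pseudocount, filter, scaling, subset of samples, variance model and adjustment run. The exceptions were a test against a log2 difference of 1, with 2276 genes (1420 higher in MDA-MB-468 and 856 higher in ZR75-1), and the adjusted p alone, with 8043 (5064 and 2979), under which list members higher in ZR75-1 rose from 98 to 155. Without one sample at a time, 3937 to 4393 genes were called. Genes on in one line and off in the other numbered 116 (MDA-MB-468) and 91 (ZR75-1) with limits of 5 and 0.5 FPKM, in place of 33 and 34. The interaction gave 14 to 48 genes without one sample, in place of 31, with 17 and 14 without PKC412 samples 1 and 3 of MDA-MB-468 and 47 and 48 without DMSO sample 2 and PKC412 sample 2 of ZR75-1, and the cause was not tested. The labels number the samples of each group. Deviations of same-numbered samples of the lines from their group means correlated with r of 0.29 in DMSO and -0.02, 0.21 and 0.04 in PKC412. Pairs with unlike numbers gave -0.31 to 0.27 in PKC412. In DMSO, with 2 samples a group, they mirror the same-numbered pairs by construction. These values cannot tell whether a shared number marks a shared batch. With the numbers as a replicate block 4183 genes were called (2720 and 1463), and the interaction gave 4 genes. Of 396 named genes called, 366 were called in the same direction under each of the 3 other scalings, 366 with each sample left out and 341 in the DMSO samples alone. None (0 of 654 named genes tested) was counted as reversed under any of these settings. That count does not cover changes of sign in small differences that were not called. FDPS, for example, changed sign after median-ratio scaling. Differences smaller than the spread of 2 to 3 samples a group cannot be seen here, and with unknown depth no limit of detection can be given for genes at 0.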

Other observations

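Among the genes on in one line and off in the other, several beyond the 10 highest of each line belong to recognisable functions, and these were chosen after their values were seen. In MDA-MB-468, the proteases MMP7 (34.2 to 57.6 FPKM) and KLK10 (10.5 to 19.3), the aminopeptidase ANPEP (31.2 to 35.3), the cytidine deaminase APOBEC3C (30.2 to 40.6), the gap junction gene GJB5 (32.9 to 41) and the nicotinamide methyltransferase NNMT (16.2 to 20.6) were above 10 FPKM in each sample and below 0.1 in each ZR75-1 sample. In ZR75-1, TXNIP, an inhibitor of thioredoxin (35.5 to 85.8 FPKM), the collagen chaperone FKBP10 (56.9 to 72.9), the forkhead factor FOXA3 (31.2 to 63.5), the small heat shock protein HSPB8 (41.9 to 62.7), the monoamine oxidase MAOB (12 to 23.7) and the transporter ABCC11 (11.7 to 29.7) were above 10 FPKM in each sample and below 0.1 in each MDA-MB-468 sample. FOXA3, like FOXA1, was higher in ZR75-1, and KLK10, like KLK5, was higher in MDA-MB-468. Other members of these families are not described here.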
